A study of Mus musculus with 6 samples.

Results

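The TREM2 pathway and genes that mark lipid-associated macrophages were examined in immortalized mouse bone marrow-derived macrophages (iBMDMs) with or without knockdown (KD) of PGAM5. The 10 genes, Trem2, Tyrobp, Apoe, Lpl, Fabp5, Spp1, Lgals3, Cd9, Cd63 and Pparg, were taken by name from the 54532 genes of the deposited tables. RNA was measured in 6 libraries, 3 from control and 3 from PGAM5 KD iBMDMs. Control cells carried a control shRNA and PGAM5 KD cells an shRNA against Pgam5, each delivered by a lentivirus, and all cells of both groups were treated with LPS at 100 ng/ml for 4 hours. The comparison is therefore between groups after LPS, and no untreated library was analysed here. The iBMDMs are 1 immortalized macrophage line. The labels do not say whether the 3 libraries of a group came from separate cultures or separate infections, so the p-values measure only the spread between these samples, which may be technical.

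TREM2 is a surface receptor of macrophages and microglia that binds lipids and lipoproteins, including apolipoprotein E. It has no signalling motif of its own and passes its signal through the adaptor TYROBP (DAP12), whose phosphorylated motif recruits the kinase SYK. In fat tissue, atherosclerotic plaques and diseased brain, macrophages and microglia that take up much lipid express a set of genes, several of which need TREM2 for their full expression, that includes those for lipoprotein lipase, osteopontin, galectin-3 and the tetraspanins CD9 and CD63.

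Expression was given as FPKM, in which the fragments of a gene are divided by its exon length and by the depth of the library. The depth recovered from these values was between 18163463 and 24388917 fragments per library. Pgam5, the targeted gene, had an FPKM of 17.1, 12.97 and 13.4 in control and 4.333, 5.754 and 4.527 in PGAM5 KD libraries, and it fell by 1.40 ± 0.13 (SE) on the log2(FPKM + 1) scale (limma, adjusted p = 0.000358). Of 10 macrophage markers, 8 were tested, and these moved in both directions, with 4 higher and 3 lower in PGAM5 KD. In mean FPKM, Fcgr1 was 3.25-fold higher (adjusted p = 0.000221), Adgre1 1.91-fold (adjusted p = 9.68e-05), Itgam 1.85-fold (adjusted p = 0.00322) and Cd14 1.48-fold (adjusted p = 2.68e-05). Csf1r was at 0.639 of control (adjusted p = 4.71e-05), Lyz2 at 0.76 (adjusted p = 0.000114) and Cd68 at 0.868 (adjusted p = 0.0011). Spi1, which encodes PU.1, was at 169.8 ± 3.84 in control and 164.6 ± 7.47 in PGAM5 KD (SD, n = 3, adjusted p = 0.431), and Mertk was listed at 0 in every library. The summed FPKM of the 10 markers, most of it from Lyz2 (1666 in control and 1265 in PGAM5 KD), ranged from 2977 to 3062 in control libraries and from 2691 to 2718 after PGAM5 KD. The part of these markers in the values of the 10 genes was not tested. Of the other cell types, the summed level of neutrophil markers reached at most 0.568, of fibroblast markers 0.0168, of adipocyte markers 0.324 and of dendritic cell markers 0.547. The sum of the lymphocyte markers was 42.1 to 44.5 FPKM among controls and 38.7 to 42.6 after PGAM5 KD, of which Ighm alone gave a mean of 43.37 and 40.81, whereas Cd3e and Ms4a1 were listed at 0 in every library. That of the microglia markers was 29.1 to 29.4 among controls and 26.4 to 27.9 after PGAM5 KD, nearly all from Cx3cr1, which monocytes and macrophages also express, with a mean of 29.23 and 26.96 (adjusted p = 0.0505). In bulk RNA, fewer cells that express a gene and less RNA per cell cannot be told apart.

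Genes were tested where their FPKM averaged at least 1 over the libraries. At an adjusted p under 0.05, 1771 (16.8%) of 10540 such genes were higher in PGAM5 KD and 1575 (14.9%) were lower, which is 31.7% in either direction. After scaling to TPM these were 1088 higher and 2282 lower. Of the 10 genes examined here, 9 passed the same filter on low values and Pparg did not. Spp1 and Fabp5 were higher, Lpl and Apoe were lower, and Trem2, Tyrobp, Lgals3, Cd9 and Cd63 did not pass the test. No member reached the study's thresholds of an adjusted p under 0.05 with an absolute log2 fold change above 1, which 1.32% of the tested genes did, and 0 of the 9 did so with an unadjusted p or by voom. The libraries of the groups did not overlap for 4 of the 9 genes, against 47.1% of all tested genes. The median log2 fold change of the 9 genes was -0.0093, and that of all tested genes was 0.013.

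**Figure D1:**
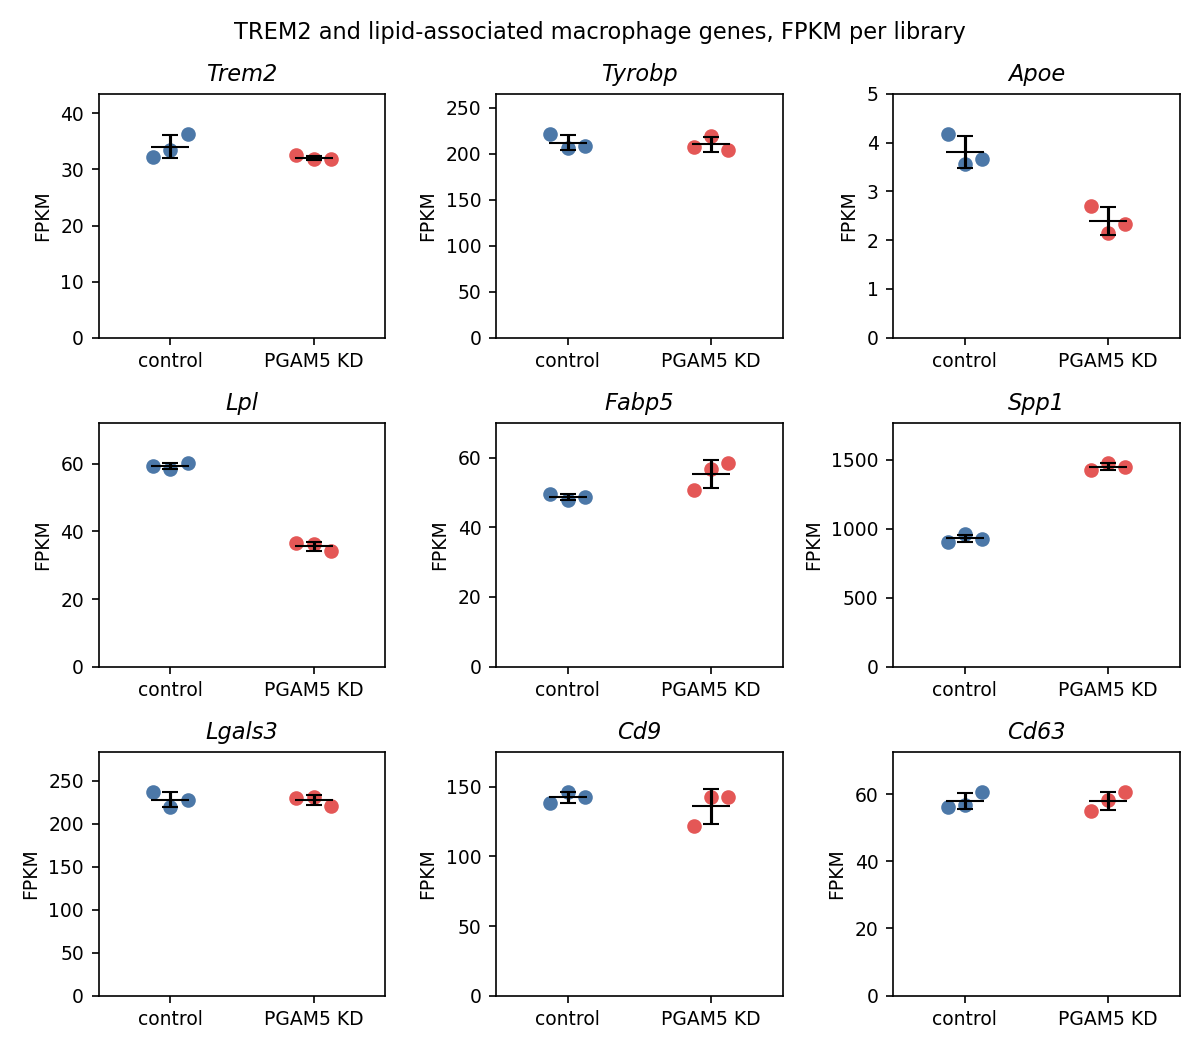
FPKM (linear axis from 0) of the 9 tested genes in each library, with control libraries in blue and PGAM5 KD libraries in red. The bars give the mean and SD of 3 libraries. Lpl and Apoe lie lower and Spp1 lies higher in every PGAM5 KD library than in any control library, whereas the Trem2, Tyrobp, Lgals3, Cd9 and Cd63 points overlap.

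Trem2 (ENSMUSG00000023992, chr17:48346401-48354147, plus strand, mm10) encodes the receptor. Its FPKM was 32.29, 33.5 and 36.29 in control and 32.52, 31.86 and 31.87 in PGAM5 KD libraries. The lowest control library lay between the PGAM5 KD libraries, so the groups overlapped. The log2 fold change was -0.081 ± 0.048 (SE), with a 95% confidence interval from -0.20 to 0.034, and did not pass the test (adjusted p = 0.249). The interval corresponds to a change between 0.873-fold and 1.02-fold. Trem2 was called in 0 of 15 alternative analyses. Its log2 fold change in them was from -0.16 to -0.035, and the lowest adjusted p was 0.0532.

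Tyrobp (ENSMUSG00000030579, chr7:30413760-30417585, plus strand) encodes the adaptor on which TREM2 depends. Its FPKM was 221.1, 205.6 and 208.4 in control and 207.7, 219.5 and 203.8 in PGAM5 KD libraries. Both groups covered the same range, and the log2 fold change of -0.0093 ± 0.042 (SE) had a 95% interval from -0.11 to 0.089 (adjusted p = 0.886). The direction turned when a single library was left out, with values from -0.04 to 0.022. The ratio of Tyrobp to Trem2 FPKM was 6.24 ± 0.56 in control and 6.56 ± 0.288 in PGAM5 KD (SD, n = 3, exact two-sided permutation p = 0.4). With 3 libraries against 3 this test cannot give a p below 0.1. The ratio depends on the length by which fragments are divided. The exons of all annotated Trem2 transcripts span 4946 bases, whereas the longest coding transcript has 1088 bases, and for Tyrobp these lengths are 667 and 597 bases. Per kilobase of the longest coding transcript, the ratio was 1.53 ± 0.138 in control and 1.61 ± 0.0707 in PGAM5 KD.

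The stretch of 250 bases before the RefSeq start site of Trem2 is shown because the receptor gives the pathway its name (GRCm38.p6, chr17:48346151-48346400, plus strand). Capitals mark TGACCT, the reverse complement of the nuclear receptor motif AGGTCA, at position -68 from the start.
Trem2: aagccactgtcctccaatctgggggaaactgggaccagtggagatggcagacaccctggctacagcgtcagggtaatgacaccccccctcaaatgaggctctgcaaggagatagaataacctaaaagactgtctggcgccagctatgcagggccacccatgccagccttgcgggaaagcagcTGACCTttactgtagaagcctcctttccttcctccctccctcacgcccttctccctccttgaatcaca
Of 32851 promoter windows of this length, 14% held AGGTCA or its reverse, and a match is a description of letters only.

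Downstream of the receptor, 21 of 23 listed genes for TREM2 signalling and shedding were tested, of which 6 were higher and 4 lower, and their median log2 fold change was -0.026. The number lower fell to 2 with the replicate block, without control library 3 and without PGAM5 KD library 2, where Syk and Itpr2 did not pass the test. Nfatc1, a calcium-regulated transcription factor, fell by 1.08 ± 0.038 (SE) from an FPKM of 60.79 ± 1.54 to 28.33 ± 0.85 (SD, n = 3, adjusted p = 1.32e-05). Ms4a6d, whose protein belongs to a family of membrane proteins linked to soluble TREM2, rose by 0.74 ± 0.083 (SE), from 6.765 to 12.03 FPKM (adjusted p = 0.000857). It shares 431 bases at 90.0% identity with Ms4a6c, which went from 3.72 to 6.04 FPKM. With Ms4a6b it shares 448 bases at 92.4%, so the division of fragments among them is uncertain. Adam10, a sheddase that cleaves TREM2 from the surface, rose by 0.34 ± 0.043 (adjusted p = 0.00148), while its relative Adam17 had 42.58 FPKM in control and 40.96 in PGAM5 KD (adjusted p = 0.408). Pik3r1, a regulatory subunit of PI3-kinase, fell by 0.33 ± 0.071 (adjusted p = 0.0136). The kinase gene Syk fell by 0.16 ± 0.042 (adjusted p = 0.0302) and was past the threshold in 9 of 15 alternative analyses. It was past it in 1 of the 6 analyses that left out 1 library, the one without control library 2, and the others gave adjusted p-values from 0.0556 to 0.0863. Itpr2, a calcium channel of the endoplasmic reticulum, fell by 0.24 ± 0.055 (adjusted p = 0.0162, and between 0.0519 and 0.0526 without control library 3 or PGAM5 KD library 2). Adam17, Syk and Itpr2 were chosen for mention after their values were seen.

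Trem2 lies in a cluster of related receptor genes on chromosome 17. Of 9 listed genes of this cluster and its neighbourhood, 5 were tested, 1 was higher and 1 was lower. Trem3, a mouse receptor that also couples to TYROBP, had an FPKM of 4.874, 2.393 and 2.01 in control and 6.363, 5.539 and 6.105 in PGAM5 KD libraries. No PGAM5 KD value fell within the control range, and Trem3 rose by 0.84 ± 0.23 on the log2 scale (SE, adjusted p = 0.0336), a call kept in 8 of 14 alternatives and lost in 5 of the 6 analyses that left out 1 library, the exception being the one without control library 1, with the highest control value. In those 5 its adjusted p was between 0.0685 and 0.101. Nfya, a subunit of a CCAAT-binding factor, fell by 0.18 ± 0.046 (adjusted p = 0.0219, kept in 10 of 15 alternatives, with 0.0672 to 0.072 without control library 2 or 3 or PGAM5 KD library 2 or 3). Trem1 had a mean of 0.8907 FPKM in control and 1.447 in PGAM5 KD (adjusted p = 0.107). Treml2 and Treml1, named after their values were seen, are the listed genes nearest to Trem2 by position. Both were below the filter. Treml2 went from 0.1622 to 0.5326 FPKM, with groups that did not overlap, and Treml1 from 0.3376 to 0.293.

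Among 13 listed receptors that use TYROBP, 6 were tested, of which 3 were higher and 1 was lower, with a median log2 fold change of 0.41. Clec5a, a C-type lectin receptor of myeloid cells, rose by 0.45 ± 0.033 (SE) from 42.92 to 58.9 FPKM (adjusted p = 0.000167). Cd300c2 rose by 0.59 ± 0.13 (adjusted p = 0.0128), and Cd300lb fell by 0.48 ± 0.045 (adjusted p = 0.000399). Cd300c2 shares 362 bases at 93.9% identity with Cd300a, which went from 15 to 9.65 FPKM, so the division of fragments between them is uncertain.

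Lpl (ENSMUSG00000015568, chr8:68880491-68907448, plus strand) encodes lipoprotein lipase, which releases fatty acids from triglyceride-rich lipoproteins. Its FPKM was 59.35, 58.63 and 60.2 in control and 36.54, 36.19 and 34.12 in PGAM5 KD libraries. The groups were far apart and each had a narrow range. Lpl fell by 0.72 ± 0.038 (SE) on the log2(FPKM + 1) scale (95% interval -0.81 to -0.63, adjusted p = 3.84e-05), and its mean FPKM in PGAM5 KD was 0.6 of control. The call held in all 15 alternatives, with values from -0.81 to -0.69.

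Apoe (ENSMUSG00000002985, chr7:19696109-19699188, minus strand) encodes apolipoprotein E, a carrier of cholesterol and a ligand of TREM2 and of the LDL receptor family. Apoe was expressed at a low level in these cells, with 83 to 162 fragments per library. Its FPKM was 4.171, 3.57 and 3.665 in control and 2.703, 2.137 and 2.34 in PGAM5 KD libraries. All PGAM5 KD libraries were below all control libraries, and Apoe fell by 0.50 ± 0.094 (SE, adjusted p = 0.00771, 95% interval -0.72 to -0.28). The mean FPKM was 0.629 of control, a larger change than the log2 value gives, since adding 1 to a low FPKM shrinks it. The call held in the 14 alternatives that tested the gene. The ratio of Lpl to Apoe FPKM was 15.7 ± 1.27 in control and 15 ± 1.75 in PGAM5 KD (SD, n = 3, exact permutation p = 0.7).

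The window of 250 bases before the first RefSeq start of Apoe (GRCm38.p6, chr7:19699189-19699438, minus strand) held on neither strand the nuclear receptor motif AGGTCA, the AP-1 motif TGACTCA, the E-box CACGTG or the PU.1 motif GAGGAAGT, which says nothing of the factors that bind there. These motifs were in 14%, 4.46%, 6.02% and 2.44% of all windows of this length. It is shown as the promoter of the member that was lower and has an entry in the sequence table.
Apoe: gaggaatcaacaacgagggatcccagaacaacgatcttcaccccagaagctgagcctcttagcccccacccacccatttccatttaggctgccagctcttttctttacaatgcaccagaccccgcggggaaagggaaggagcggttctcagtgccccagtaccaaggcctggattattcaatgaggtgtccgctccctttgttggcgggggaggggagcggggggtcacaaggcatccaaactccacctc

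Apoe sits beside Apoc1, Apoc2 and Apoc4, which were listed at 0 in every library. Its neighbours Tomm40 and Clptm1 were at 42.09 and 25.33 FPKM in control and at 43.93 and 23.85 in PGAM5 KD, and neither passed the test (adjusted p = 0.288 and 0.274). Nectin2, the gene next to Tomm40 on the list, was below the filter, at 0.2678, 0.4681 and 0.4838 FPKM in control and 1.146, 1.024 and 1.267 in PGAM5 KD libraries. Its groups did not overlap, and with no filter on low values it rose by 0.61 ± 0.10 (SE, adjusted p = 0.0154). The list of 18 genes held genes that handle apolipoprotein E or lipoprotein lipase together with the neighbours Nectin2, Tomm40 and Clptm1. Of these 18, 12 were tested, 0 were higher and 3 were lower by limma. At an unadjusted p under 0.05 or by voom, 0 of the 12 were higher. With no filter on low values 1 of the list was higher, the neighbour Nectin2. Lrp8, a receptor for apolipoprotein E, fell by 0.40 ± 0.059 (SE, adjusted p = 0.00307), and Lrp1, a large endocytic receptor for the same ligand, fell by 0.34 ± 0.037 (adjusted p = 0.000798). Abcg1, which exports cholesterol, fell by 0.23 ± 0.049 (adjusted p = 0.0138). Gpihbp1, which anchors lipoprotein lipase to capillaries, and Vldlr, both named after their values were seen, were listed at 0 in every library.

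Fabp5 (ENSMUSG00000027533, chr3:10012548-10016607, plus strand) encodes a cytosolic fatty acid-binding protein. Its FPKM was 49.54, 47.89 and 48.66 in control and 50.77, 56.72 and 58.41 in PGAM5 KD libraries. All PGAM5 KD libraries were higher, although the first was only just above the highest control library. Fabp5 rose by 0.18 ± 0.055 (SE, adjusted p = 0.0463, 95% interval 0.048 to 0.31), and this call held in 5 of 15 alternatives and in neither scaling to TPM nor quantile normalization.

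The Fabp5 value is uncertain because the mouse genome holds processed pseudogenes, copies made from spliced mRNA, that are nearly identical to it. Gm6166 matched 98.3% of 409 aligned bases and Gm14328 matched 97.3% of 408. The 173 bases of coding exon 2 of Fabp5 (mm10, chr3:10014971-10015143, plus strand) and the matching stretch of Gm6166 (chr9:57484042-57484214, plus strand) are shown, from GENCODE M21 transcripts, because they differ at 1 base, in capitals in the pseudogene.
Fabp5: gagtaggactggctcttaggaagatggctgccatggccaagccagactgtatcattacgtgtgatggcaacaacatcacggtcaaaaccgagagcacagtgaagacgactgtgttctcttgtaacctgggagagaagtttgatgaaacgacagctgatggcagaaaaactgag
Gm6166: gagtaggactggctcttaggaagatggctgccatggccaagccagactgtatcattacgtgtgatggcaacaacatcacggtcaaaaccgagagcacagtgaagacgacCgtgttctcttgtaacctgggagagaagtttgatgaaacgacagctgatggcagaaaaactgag
Gm6166 received 1299, 1472 and 1626 fragments in control and 3042, 1548 and 2269 in PGAM5 KD libraries. PGAM5 KD library 1 stood apart here, since Fabp5 held 55.4% of the summed fragments of Fabp5 and its copies in it and between 64.9% and 68.9% in the other 5 libraries. Gm6166 by itself did not pass the test (log2 fold change 0.44 ± 0.172, adjusted p = 0.0915). Summed over Fabp5 and its copies, the level was 256.3, 252.8 and 267.3 fragments per 1000000 of depth in control and 326.9, 299.4 and 314.4 in PGAM5 KD libraries. These groups did not overlap, and the summed value rose by 0.27 (adjusted p = 0.00358). It passed the test also after scaling to TPM (0.20, adjusted p = 0.0191), after quantile normalization (0.19, adjusted p = 0.0159) and without PGAM5 KD library 1 (0.24, adjusted p = 0.00914). This sum was chosen after the values were seen, and whether the fragments came from Fabp5 or from the pseudogenes was not tested.

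**Figure D2:**
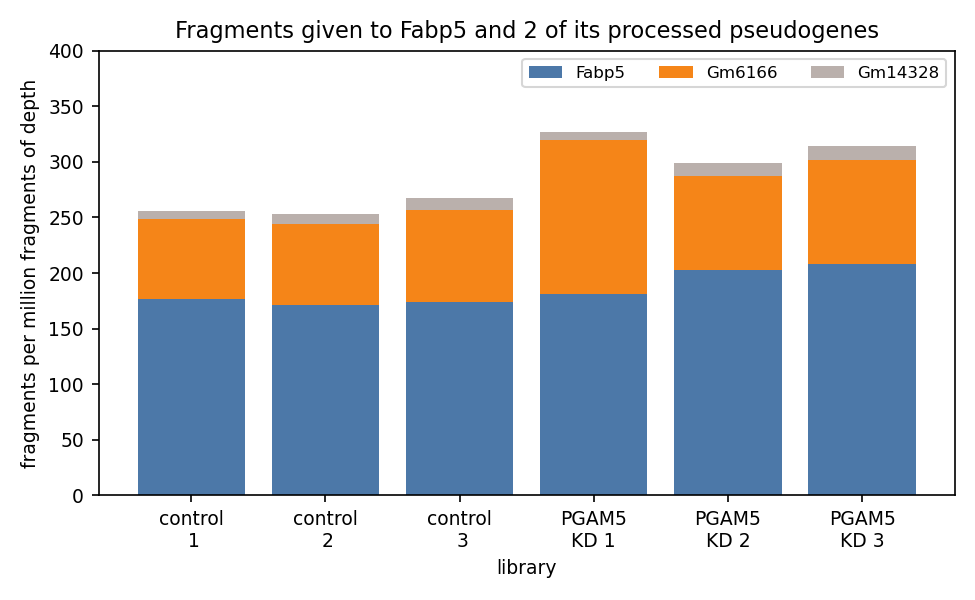
Fragments per 1000000 fragments of depth (linear axis) given to Fabp5 and to its processed pseudogenes Gm6166 and Gm14328, stacked for each of the 6 libraries. The full bars are higher in the 3 PGAM5 KD libraries than in the controls, and the Gm6166 part is largest in PGAM5 KD library 1.

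Of 10 listed fatty acid-binding proteins, 3 were tested, and besides Fabp5 only Fabp4, which macrophages express with lipid loading, was higher. Its FPKM was 3.569, 3.875 and 3.583 in control and 7.501, 7.714 and 8.147 in PGAM5 KD libraries, and it rose by 0.91 ± 0.061 (SE, adjusted p = 0.000102). Fabp3, named after its value was seen, was at 2.509 FPKM in control and 2.247 in PGAM5 KD (adjusted p = 0.757).

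Spp1 (ENSMUSG00000029304, chr5:104435118-104441050, plus strand) encodes osteopontin, a secreted phosphoprotein that binds integrins and CD44. It was among the most abundant mRNAs of these cells, ranked 21 by FPKM in control and 9 in PGAM5 KD. Its FPKM was 905.2, 959.6 and 924.2 in control and 1428, 1475 and 1450 in PGAM5 KD libraries. The groups were clearly separate, and Spp1 rose by 0.64 ± 0.031 on the log2 scale (SE, 95% interval 0.57 to 0.71, adjusted p = 2.54e-05), 1.56-fold in mean FPKM. The call held in all 15 alternatives, from 0.47 to 0.67.

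The window of 250 bases before the first RefSeq start of Spp1 (GRCm38.p6, chr5:104434861-104435110, plus strand) is shown for the member that rose most. Capitals mark GAGGAAGT, the PU.1 motif searched, at position -113 from the start. This motif or its reverse was in 2.44% of the 32851 windows. The window of another RefSeq start of Spp1 (chr5:104435942-104436191), not shown, held none of the motifs searched.
Spp1: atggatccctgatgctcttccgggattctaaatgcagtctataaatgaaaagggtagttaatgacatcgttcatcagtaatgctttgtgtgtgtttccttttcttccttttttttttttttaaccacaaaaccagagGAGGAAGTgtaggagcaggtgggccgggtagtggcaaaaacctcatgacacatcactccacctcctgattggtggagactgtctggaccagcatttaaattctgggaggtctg

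Of 8 listed osteopontin receptors, 6 were tested, 1 was higher and 3 were lower. Itgav, the integrin alpha-v chain, fell by 0.48 ± 0.04 (SE, adjusted p = 0.000247), Itga4 fell by 0.37 ± 0.044 (adjusted p = 0.00116) and Itga5 fell by 0.21 ± 0.033 (adjusted p = 0.00389). Itgb5 rose by 0.22 ± 0.068 (adjusted p = 0.0448), a call kept in 5 of 15 alternatives. Of the analyses that left out 1 library it was kept only without control library 3, and the others gave adjusted p-values from 0.0863 to 0.122. Cd44 was at 66.72 FPKM in control and 67.07 in PGAM5 KD (adjusted p = 0.896), and Itgb3, the partner of Itgav in the classical osteopontin receptor, reached a mean of 0.014 FPKM in control and 0.01003 in PGAM5 KD. Cd44 and Itgb3 were chosen for mention after their values were seen.

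**Figure D3:**
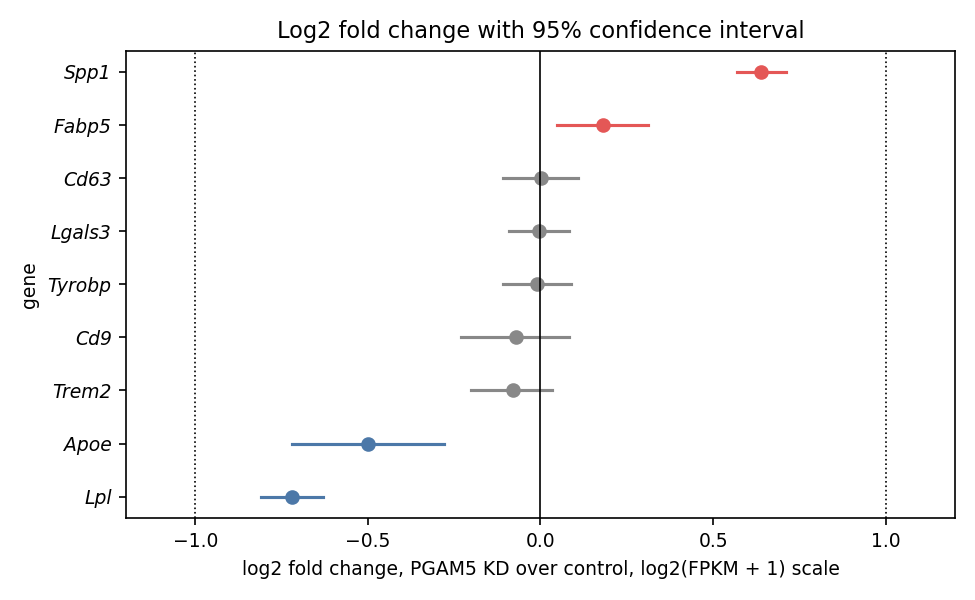
Log2 fold change of PGAM5 KD over control on the log2(FPKM + 1) scale with its 95% confidence interval for the 9 tested genes. Genes higher at an adjusted p under 0.05 are red, lower ones blue and others grey, and dotted lines mark the study's threshold of 1 in either direction, which no gene reaches.

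Lgals3 (ENSMUSG00000050335, chr14:47367751-47386160, plus strand) encodes galectin-3, a lectin that gathers at damaged lysosomes and can bind TREM2. Its FPKM was 236.8, 219.4 and 227.8 in control and 229.8, 231.4 and 221.1 in PGAM5 KD libraries. The groups overlapped entirely, and the log2 fold change was -0.0034 ± 0.037 (SE, 95% interval -0.091 to 0.084, adjusted p = 0.955). Of 8 listed galectins and their binding partner, 5 were tested, and the 4 other than Lgals3 were higher, with a median of 0.30 over the 5. Lgals9, which encodes galectin-9, rose by 1.12 ± 0.073 from 14.61 to 32.91 FPKM (SE, adjusted p = 9.44e-05). Lgals3bp, a secreted partner of galectin-3, rose by 0.80 ± 0.038 (adjusted p = 2.54e-05). Lgals8 rose by 0.30 ± 0.06 (adjusted p = 0.01), and Lgals1 rose by 0.19 ± 0.043 (adjusted p = 0.0143), the latter call being lost after scaling to TPM and after quantile normalization. Exons of Lgals8 share 155 bases with Heatr1 on the other strand, and whether the libraries kept strand is not stated.

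Cd9 (ENSMUSG00000030342, chr6:125460266-125494791, minus strand) and Cd63 (ENSMUSG00000025351, chr10:128900989-128912822, plus strand) encode tetraspanins of the cell surface and of late endosomes. Cd9 was at 138.2, 146.1 and 142.9 FPKM in control and at 121.6, 143 and 142.9 in PGAM5 KD libraries. Its PGAM5 KD library 1 lay below all others, and the log2 fold change of -0.071 ± 0.066 (SE, 95% interval -0.23 to 0.084, adjusted p = 0.451) became 0.0062 without that library. Cd63 was at 56.3, 56.89 and 60.57 FPKM in control and at 55.09, 58.27 and 60.58 in PGAM5 KD libraries. These ranges nearly coincide, and the log2 fold change was 0.0011 ± 0.048 (SE, 95% interval -0.11 to 0.11, adjusted p = 0.99), with a negative sign after scaling to TPM (-0.077) and quantile normalization (-0.062). A transcribed pseudogene, Cd63-ps, 98.5% identical over 812 bases, took the remaining part of the summed fragments, of which Cd63 held between 92.4% and 94.6%, and the sum of both changed by 0.014 (adjusted p = 0.852).

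Of 24 listed tetraspanins, 13 were tested, 3 were higher and 1 was lower. Cd53, a tetraspanin of leukocytes, rose by 0.67 ± 0.057 (SE, adjusted p = 0.000276) and Cd81 rose by 0.46 ± 0.054 (adjusted p = 0.00114). Tspan31 rose by 0.34 ± 0.073 (adjusted p = 0.0128), but its exons share 641 bases with Cdk4 on the other strand, so its fragments are uncertain. Tspan14, which accompanies ADAM10, fell by 0.21 ± 0.047 (adjusted p = 0.0164, kept in 13 of 15 alternatives, but 0.0529 to 0.0566 without control library 3 or PGAM5 KD library 2). Cd82, named after its value was seen, was at 29.15 FPKM in control and 25.55 in PGAM5 KD (adjusted p = 0.0737). It was called lower in 5 of 15 alternatives, which were TPM, quantile normalization, voom, the replicate block and the analysis without PGAM5 KD library 1, and the list then had 2 genes lower.

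Pparg (ENSMUSG00000000440, chr6:115360951-115490399, plus strand) encodes a lipid-sensing nuclear receptor that pairs with RXR. It was at the floor of detection, with 1, 3 and 0 fragments in control and 0 in each PGAM5 KD library. A count of 0 allows up to 3 fragments, which corresponds to between 0.0417 and 0.0559 FPKM in these libraries, covering counting error only, so no fold is given and a difference was not detectable at this depth. Of 8 listed partners and relatives, 6 were tested, 1 was higher and 2 were lower. Rxra fell by 0.73 ± 0.1 from 2.897 to 1.352 FPKM (SE, adjusted p = 0.00188). Its mean FPKM was 0.467 of control, a larger change than the log2 value gives, since adding 1 shrinks it. The corepressor gene Ncor1 fell by 0.21 ± 0.041 (adjusted p = 0.00908), and Rxrb rose by 0.17 ± 0.052 (adjusted p = 0.0414), a call kept in 5 of 15 alternatives. With 1 library left out, it was kept only without control library 1, and the others gave adjusted p-values from 0.074 to 0.117. Of 10 genes listed as targets of PPARG, 9 were tested, 2 were higher and 3 lower. Fabp4 (above) and Cd36, a scavenger receptor for fatty acids, were higher, the latter by 0.31 ± 0.065 (adjusted p = 0.0119). Lpl, Abcg1 and Cpt1a, the last a mitochondrial carnitine transferase that fell by 0.28 ± 0.062 (adjusted p = 0.0146), were lower.

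Beyond the members, 24 genes were listed as other markers of lipid-associated macrophages or disease-associated microglia. Of these 19 were tested, 5 were higher and 10 lower, with a median log2 fold change of -0.27. With quantile normalization 3 were higher and 11 lower, since Capg and Lgals1 no longer passed the test and Ctsz was called lower. Gpnmb, a lysosomal and surface glycoprotein of lipid-laden macrophages, had an FPKM of 271.7, 278.5 and 275.6 in control and 110.9, 106.8 and 109.2 in PGAM5 KD libraries. It fell by 1.33 ± 0.028 (SE, adjusted p = 5.2e-06). Axl, a receptor kinase for apoptotic cells, fell by 1.69 ± 0.13, from 6.4 ± 0.685 to 1.295 ± 0.324 FPKM (SD, n = 3, adjusted p = 0.000166). These were the 2 genes of the list past the study's thresholds on the log2(FPKM + 1) scale of the main analysis. The count depends on the setting, since over the alternatives Fabp4 reached 1.08 and Lilrb4a -1.02. Lilrb4a, an inhibitory receptor, fell by 0.92 ± 0.056 (adjusted p = 7.74e-05), but it is 96% identical over 1388 bases to Lilr4b, which went from 36 to 26.5 FPKM. Fabp4, given above, had the largest rise of the list. Igf1, a growth factor gene named after its value was seen, was below the filter, at 0.3338 FPKM in control and 0.02539 in PGAM5 KD, and fell by 0.38 ± 0.036 with no filter on low values (SE, adjusted p = 0.00235). Adding 1 to so low an FPKM shrinks this value. Among lysosomal enzymes of the list, named after their values were seen, Lipa, the acid lipase, fell by 0.54 ± 0.029 (adjusted p = 4.28e-05), Ctsb fell by 0.40 ± 0.026 (adjusted p = 9.44e-05) and Ctsd fell by 0.40 ± 0.032 (adjusted p = 0.000202), while Ctsl rose by 0.51 ± 0.04 (adjusted p = 0.000198). Ctsz, another cathepsin gene, was at 390.9 FPKM in control and 382.4 in PGAM5 KD and did not pass the test (log2 fold change -0.031 ± 0.031, adjusted p = 0.475), but was called lower after scaling to TPM and after quantile normalization. Exons of Ctsb share 774 bases with Fdft1 on the other strand.

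**Figure D4:**
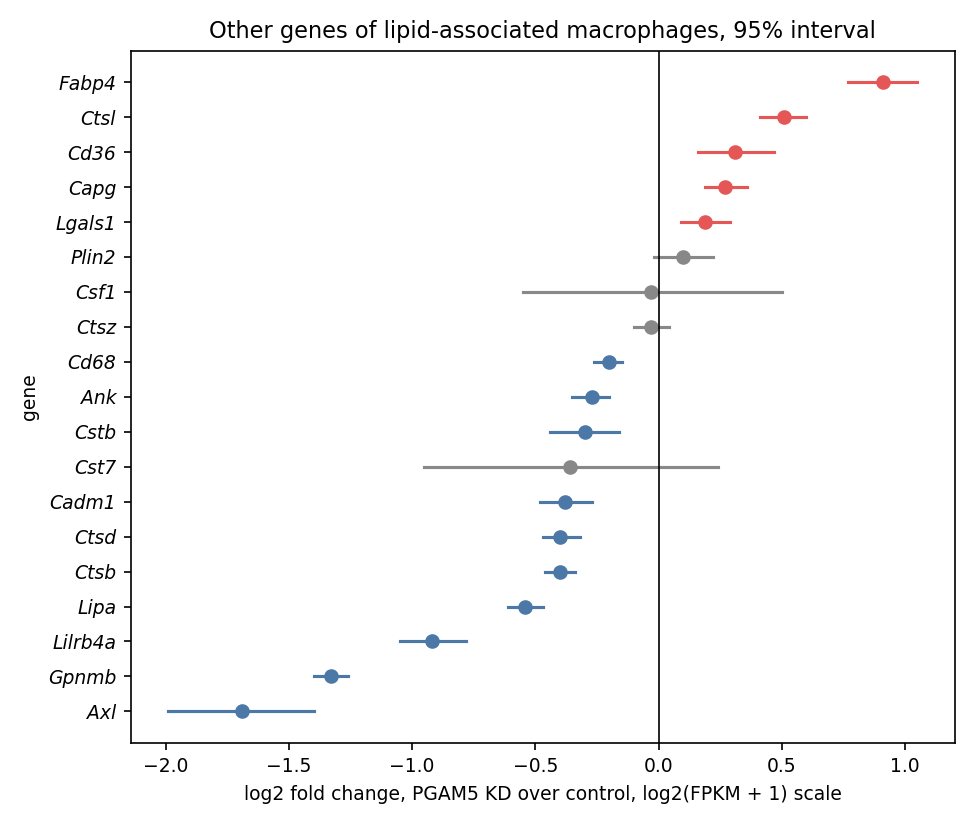
Log2 fold change of PGAM5 KD over control on the log2(FPKM + 1) scale with its 95% confidence interval for the 19 tested genes of the list of other lipid-associated macrophage genes. Red marks the 5 genes higher and blue the 10 genes lower at an adjusted p under 0.05, from Fabp4 at 0.91 to Axl at -1.69.

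Some of these genes are also used as osteoclast markers, cells that share the macrophage lineage. Of 6 osteoclast markers, 3 had a mean FPKM of at least 1 and Calcr was listed at 0 in every library, and the summed level of the 6 ranged from 220.8 to 231.5 FPKM in control libraries and from 185.3 to 192.6 after PGAM5 KD. Acp5 fell by 1.09 ± 0.051 (SE, adjusted p = 2.54e-05), Dcstamp fell by 0.43 ± 0.086 (adjusted p = 0.00974), and Ctsk rose by 0.15 ± 0.028 (adjusted p = 0.00818). The part of these markers in the values of Nfatc1, Gpnmb and Spp1 was not tested.

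By FPKM, the order in control was Spp1, Lgals3, Tyrobp, Cd9, Lpl, Cd63, Fabp5, Trem2, Apoe and Pparg. The neighbours Lgals3 and Tyrobp, and Lpl and Cd63, overlapped between libraries, and the other neighbours were separate. In PGAM5 KD, Lpl moved below Fabp5, and only Cd63 and Fabp5 overlapped. FPKM here divides by all annotated exons, whether or not these cells use them. With the exon length replaced by that of the longest coding transcript, Trem2 was at 154.7 in control and Lpl at 151.2, and in PGAM5 KD these were 145.8 and 90.69. On the same scale Spp1 went from 1017 to 1587 and Apoe from 5.773 to 3.634.

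**Figure D5:**
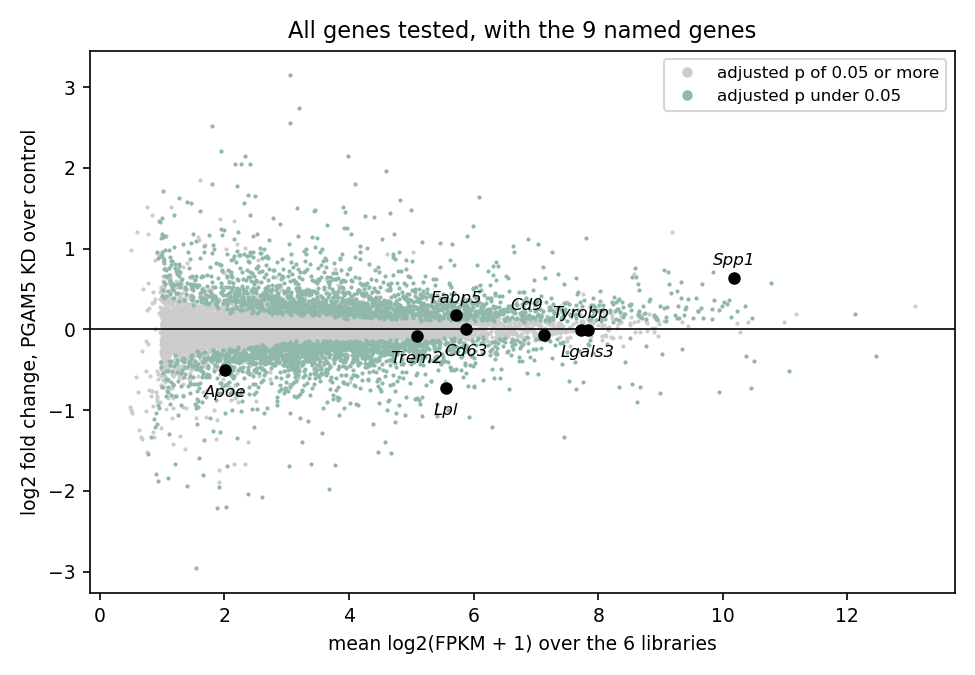
Log2 fold change of PGAM5 KD over control against the mean log2(FPKM + 1) over the 6 libraries for the 10540 tested genes, green where the adjusted p was under 0.05 and grey otherwise. The 9 members are black. Spp1 lies at the abundant end above the zero line, Lpl and Apoe lie below it, and the others lie close to it.

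Lpl was taken as the reference for likeness, since its change had the largest size among the members. The genes with the most similar log2(FPKM + 1) profile over the 6 libraries were Dot1l (Pearson r = 0.9996), Myof (0.9995) and Sqstm1 (0.9995). This is a description over 6 libraries that share the group difference, and carries no test. Sqstm1, which encodes the autophagy receptor p62, fell by 0.65 ± 0.031 (SE, adjusted p = 2.54e-05) from 270.7 ± 5.66 to 172.1 ± 4.23 FPKM (SD, n = 3).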

How the data were processed

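RNA was measured in 6 libraries of LPS-treated iBMDMs, 3 control and 3 PGAM5 KD, grouped by their labels. The authors deposited FPKM per library. Per the labels, HISAT2 2.0.5, featureCounts 1.5.0-p3 and mm10 were used, and the annotation and strand setting are not given in the sources used here. Of 54532 gene identifiers, 54495 were in GENCODE M21, which gave names and exon lengths, and 37 were not. Fragments and depth were recovered from FPKM and exon length. The resulting counts were whole, within 0.01, for 96.8% to 97.1% of values under 1000 fragments.

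Genes whose FPKM averaged at least 1 (10540) were compared on the log2(FPKM + 1) scale by limma 3.58.1 under R 4.3.3 (trend, two-sided, Benjamini-Hochberg). Fold changes on this scale understate changes of low genes. In a simulation where 200 of 10516 genes were changed 2.5-fold, 199 were recovered, and 3.40% of calls were false. Recovery of smaller folds, like those of the members, was not tested. The share of false calls where 31.7% of genes are called, as in these data, was not tested either. Similar genes were found with blastn 2.17.0 (at least 85% identity over 200 bases, or 350 bases for listed genes). Promoters of 7 of the 10 members came from RefSeq (GRCm38.p6). For Tyrobp, Lpl and Fabp5 none is shown. Tables were made with Python 3.11.15 and pandas 2.3.3.

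The members and lists were chosen with earlier results of these data known, so no p is adjusted over a list. Of each list, up to 4 called genes of largest absolute change are named, plus listed neighbours of Apoe and the genes beside Trem2 in list order, Trem1 and Trem3. Genes of a list named beyond these are said to have been chosen after their values were seen, and cell type markers come from their own lists. Alternatives were a pseudocount of 0.1, no filter, a mean FPKM of at least 5, TPM, quantile normalization, median centring, no trend, voom on recovered fragments, a replicate block and leaving out each library. Summing similar genes was chosen after seeing the data.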

Additional observations from a re-analysis of the deposited data

How the results depend on the processing

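The calls of Spp1, Lpl and Apoe held in every alternative that tested them. The number of members called higher was 2, but it was 1, Spp1 alone, with no filter on low values, with scaling to TPM, with quantile normalization, without the mean-variance trend and with the replicate block, and it ranged from 1 to 2 when single libraries were left out, with 2 only without PGAM5 KD library 1. The number called lower was 2, and 1 at a mean FPKM of at least 5, where Apoe was not tested. Summing similar genes left both counts at 2. Members close to 0 changed sign. Cd63 was at -0.077 with TPM, -0.062 with quantile normalization and -0.0042 with voom, and Lgals3 was at 0.004 with median centring. Without single libraries, Tyrobp ranged from -0.04 to 0.022, Lgals3 from -0.031 to 0.024, Cd9 from -0.11 to 0.0062 and Cd63 from -0.031 to 0.037. Trem2 kept a negative sign, from -0.12 to -0.035 without single libraries and with -0.16 as its lowest value over all alternatives.

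Of 48 other listed genes called in the main analysis, 38 were called in every alternative that tested them, and of 40 not called, 10 were called in at least 1. Of 330 list counts under alternatives, 272 were within 1.5 times the main count. Over all genes, 139 passed the study's thresholds, against 261 with a pseudocount of 0.1, 76 at a mean FPKM of at least 5, 233 with TPM and 278 with voom, and 1088 rather than 1771 were higher with TPM.

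Same-numbered libraries did not deviate together (r = -0.02, 0.02 and -0.05). This shows no variation shared by number, but it cannot tell whether the libraries were handled in pairs. With the replicate block, 1440 genes were higher and 1212 lower, and Fabp5 was the only member whose call differed. Depth limits Pparg, with at most 3 fragments, and leaves Apoe with at least 83.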
